A study of Mus musculus with 15 samples.

Results

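The 8 genes described here encode transcription regulators of the maturing kidney tubule: Hnf4a, Hnf4g, Ppara, Ppargc1a, Esrra, Esrrb, Esrrg and Tfcp2l1. They were taken by name from 46517 genes in the RNA count files, and all 8 were found and passed the low-count filter that left 18132 genes for testing. Their CpG positions, in each RefSeq gene and 2 kb either side, numbered 4604 listed in any sample. Of these, 369 reached 10 calls in every one of the 9 methylation samples, out of 360390 such positions genome-wide.

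All samples were kidney from C57BL/6 mice. The newborn controls at postnatal day 0 (P0) had the genotype Dnmt1 f/f, so they carried floxed Dnmt1 alleles, and no Cre is named for them. The knockouts (KO), also at P0, were Six2Cre Dnmt1 f/f and carried the same floxed alleles with a Cre driven by Six2. The adults were 6 weeks old and wild type, so they differed from the P0 controls in genotype as well as age. Reduced representation bisulfite sequencing (RRBS), which reads CpG methylation in CpG-rich restriction fragments, covered 3 control, 3 KO and 3 adult samples, and poly A RNA sequencing covered 3 control and 3 KO samples. Nothing in the labels says whether samples of a group came from separate animals, so p-values cannot be taken to measure a spread between animals. Those of genes rest on the spread between these samples, shared in part across genes. Those of single positions rest mostly on call numbers and a spread shared across positions.

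Six2 marks the progenitors that give rise to nephron epithelium from podocyte to distal tubule, whereas collecting duct, stroma and vessels come from other lineages that this Cre is not known to target. The labels name Six2+ cells as the source, while the extraction protocol names whole kidneys for the DNA. Six2 itself was at 98.0, 107 and 41.4 CPM (a count as its share of the library, with libraries scaled by edgeR's TMM method) in controls 1 to 3 and at 84.4, 93.8 and 105 CPM in KO 1 to 3. The summed CPM of 9 stroma markers ran from 3260 to 3910 in controls and from 3400 to 4000 in KO, and that of 8 endothelial markers from 978 to 1370 and from 621 to 795, so RNA of cell types outside the Six2 lineage was present in all 6 libraries. In such mixed tissue, fewer cells of a type and less RNA per cell cannot be told apart.

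HNF4A and its paralogue HNF4G are nuclear receptors that hold the proximal tubule programme of transporters and metabolic enzymes. PPARA is a fatty acid-activated nuclear receptor that switches on fatty acid oxidation, and PGC-1 alpha, the product of Ppargc1a, is a co-activator that works with PPAR and ERR receptors. The estrogen-related receptors ERR alpha, beta and gamma (Esrra, Esrrb, Esrrg) are orphan receptors, of which alpha and gamma drive genes of mitochondrial respiration, while ERR beta is best known from placenta, inner ear and pluripotent stem cells. TFCP2L1 is a CP2-family factor of the distal nephron and collecting duct that is also used by pluripotent stem cells.

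RNA totals ran from 26773937 to 34102567 gene counts per library, and RRBS totals from 18424875 to 88765177 calls per sample with a median of 4 to 18 calls per listed position. The share of unassigned RNA reads was 22.9% to 30.9% in controls and 30.7% to 35.8% in KO, and its part in the results was not tested. Dnmt1, the targeted gene, was at 180, 156 and 188 CPM in controls and at 110, 111 and 93.7 CPM in KO (log2 fold change -0.74, SE 0.12, edgeR adjusted p 0.00577), that is 60.0% of control. Control 3 stood apart from the other controls: its summed proximal tubule markers were 5730 CPM against 2600 and 2260, and its summed nephron progenitor markers 579 CPM against 920 and 1090. Values without control 3 are given beside the results for the 8 genes and their pathway lists that it moved most.

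The DNA before the annotated starts differed in CpG content between the genes, and its relation to methylation coverage was not tested. The promoter table of RefSeq starts (build GRCm38.p6) held 12 starts for 7 of the 8 genes. In the 250 bases before a start, all 32841 promoters in that table had a median of 6 CpG (quartiles 2 and 16). The 2 Hnf4a promoters held 3 and 4 CpG, the 2 Esrrb promoters 6 and 3, and the Ppargc1a promoter 5. Ppara had 27, Esrra 22, Tfcp2l1 16 and the 4 Esrrg starts 9 to 22. Sequences of the Hnf4a and Esrrb promoters, with 3 to 6 CpG, are shown with those of the CpG-rich Ppara and Esrra promoters for contrast, each 5′ to 3′ on the gene's strand, with CpG dinucleotides in capitals. The Hnf4a upstream start (plus strand, chr2:163506607-163506856) and downstream start (plus strand, chr2:163546905-163547154) lie 40298 bases apart. Those of Esrrb (plus strand, chr12:86360867-86361116 and chr12:86421394-86421643) lie 60527 bases apart, Ppara is at chr15:85735526-85735775 on the plus strand and Esrra at chr19:6921809-6922058 on the minus strand.
Hnf4a upstream: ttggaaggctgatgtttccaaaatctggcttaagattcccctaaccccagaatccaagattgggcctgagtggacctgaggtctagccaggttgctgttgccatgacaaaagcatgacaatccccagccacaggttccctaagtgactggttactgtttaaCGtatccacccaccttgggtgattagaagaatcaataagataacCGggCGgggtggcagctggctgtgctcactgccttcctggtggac
Hnf4a downstream: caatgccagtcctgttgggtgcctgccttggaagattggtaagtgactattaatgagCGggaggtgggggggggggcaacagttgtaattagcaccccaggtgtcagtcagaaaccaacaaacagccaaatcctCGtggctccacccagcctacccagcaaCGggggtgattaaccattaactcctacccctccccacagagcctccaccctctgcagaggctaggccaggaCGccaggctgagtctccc
Esrrb upstream: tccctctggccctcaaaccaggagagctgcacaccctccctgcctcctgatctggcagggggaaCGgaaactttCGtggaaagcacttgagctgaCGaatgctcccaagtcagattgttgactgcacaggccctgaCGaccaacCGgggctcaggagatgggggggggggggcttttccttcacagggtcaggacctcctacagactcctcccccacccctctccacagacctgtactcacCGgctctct
Esrrb downstream: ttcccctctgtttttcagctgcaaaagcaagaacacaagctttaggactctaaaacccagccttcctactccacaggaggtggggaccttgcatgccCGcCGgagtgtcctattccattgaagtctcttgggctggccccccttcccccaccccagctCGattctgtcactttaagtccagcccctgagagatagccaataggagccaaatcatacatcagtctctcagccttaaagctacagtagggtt
Ppara: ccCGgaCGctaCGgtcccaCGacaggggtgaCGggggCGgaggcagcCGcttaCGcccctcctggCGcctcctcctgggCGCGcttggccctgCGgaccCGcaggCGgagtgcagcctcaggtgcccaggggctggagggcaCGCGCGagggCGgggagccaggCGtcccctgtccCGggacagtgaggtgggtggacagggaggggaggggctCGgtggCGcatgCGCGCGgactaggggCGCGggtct
Esrra: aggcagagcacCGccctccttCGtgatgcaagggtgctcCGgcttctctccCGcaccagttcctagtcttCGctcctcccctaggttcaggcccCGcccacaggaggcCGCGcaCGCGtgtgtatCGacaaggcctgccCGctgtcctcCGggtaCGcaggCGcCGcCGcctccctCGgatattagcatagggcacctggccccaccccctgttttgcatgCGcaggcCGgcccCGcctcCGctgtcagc

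Nuclear receptor motifs and the restriction site CCGG were searched on both strands of these 12 windows. AGGTCA, the core element of many nuclear receptors, was in none of the 12, against 14% of all promoters of the same length. TCAAGGTCA, an extended form bound by ERR receptors, and CAAAGTCCA, a core form of the HNF4 element, were also in none, against 0.387% and 0.384% of all promoters. AGGTCA is contained in TCAAGGTCA. CCGG, cut by the enzyme MspI, was in 10 of the 12, against 47.1% of all promoters.

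Transcripts of 5 of the 8 genes (62.5%) were lower in KO than in control at P0, and none was higher. Hnf4a, Ppargc1a, Esrra, Esrrb and Esrrg passed the test (edgeR quasi-likelihood, adjusted p below 0.05 over all genes). Hnf4g, Ppara and Tfcp2l1 did not. The largest difference was in Esrrb, at 8.73% of control, and the smallest among those called was in Esrra, at 63.4%. Over all genes tested, 8.23% were lower and 6.36% were higher. The median log2 fold change of the 8 was -1.16, against 0 over all genes tested.

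Hnf4a (ENSMUSG00000017950.15, chromosome 2, 163506811 to 163572907) was at 163, 111 and 250 CPM in controls 1 to 3 and at 45.8, 57.6 and 46.4 CPM in KO 1 to 3. Every KO sample lay below every control, and the controls were more spread than the KO samples. The means were 175 ± 70.1 and 49.9 ± 6.63 CPM (SD, n = 3 each), with a log2 fold change of -1.81 (SE 0.27, edgeR adjusted p 0.00353). Without control 3 the log2 fold change was -1.46 (adjusted p 0.000462). A long non-coding gene, Hnf4aos, overlaps Hnf4a, and whether counting used strand is not given in the sources used here, so antisense reads cannot be told apart.

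Hnf4g (ENSMUSG00000017688.13, chromosome 3, 3508030 to 3659800), the paralogue of Hnf4a, was barely detected, at 43, 42 and 135 counts in controls and 52, 36 and 29 counts in KO. That is 1.31, 1.36 and 3.67 CPM against 1.62, 1.18 and 1.10 CPM. The groups overlapped, with KO 1 above controls 1 and 2, and only control 3 stood higher. KO differed from control by -0.70 on the log2 scale (SE 0.45, edgeR adjusted p 0.372) and by -0.03 without control 3.

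Ppara (ENSMUSG00000022383.12, chromosome 15, 85734910 to 85806851) was at 3.38, 2.75 and 7.88 CPM in controls and at 1.99, 2.26 and 1.71 CPM in KO. The groups did not overlap, and control 3 was the highest of the 6 samples. Its log2 fold change of -1.23 (SE 0.42) did not pass the test (edgeR adjusted p 0.0896) and was -0.62 without control 3 (adjusted p 0.0918). Other settings did call it lower: DESeq2 gave -1.23 with an adjusted p of 0.0261, edgeR with no low-count filter 0.0432, and edgeR without control 2 0.0480.

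Ppargc1a (ENSMUSG00000029167.12, chromosome 5, 51454249 to 52115853), the PGC-1 alpha gene, was at 66.0, 51.9 and 65.1 CPM in controls and at 33.0, 29.2 and 24.4 CPM in KO. Every control lay above every KO sample, and control 3 was not the highest. Means were 61.0 ± 7.89 and 28.9 ± 4.31 CPM (SD, n = 3 each), 47.3% of control, with a log2 fold change of -1.08 (SE 0.15, edgeR adjusted p 0.00279).

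Esrra (ENSMUSG00000024955.12, chromosome 19, 6910977 to 6922048) was at 40.1, 40.4 and 51.1 CPM in controls and at 26.5, 30.5 and 26.5 CPM in KO. All KO samples lay below all controls, by -0.66 on the log2 scale (SE 0.14, edgeR adjusted p 0.0175). This was the least stable call of the 5. It was lost with library size as the only scaling (adjusted p 0.0676), with KO 1 left out (0.0862) and with KO 3 left out (0.0764), each with edgeR and with log2 fold changes of -0.63, -0.62 and -0.62. Prdx5, Trmt112, Mir6990 and Catsperz lie within the gene or its 2 kb flanks, and Trmt112 and Mir6990 overlap the gene itself.

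Esrrb (ENSMUSG00000021255.16, chromosome 12, 86361117 to 86521628) was at 21.3, 22.9 and 15.6 CPM in controls and at 1.37, 2.82 and 1.03 CPM in KO, from 575 to 707 counts against 27 to 86 counts. Every KO sample was far below the lowest control. Means were 19.9 ± 3.81 and 1.74 ± 0.952 CPM (SD, n = 3 each), with a log2 fold change of -3.51 (SE 0.38, edgeR adjusted p 0.000837). Unlike Hnf4a, Hnf4g, Ppara, Esrra, Esrrg and Tfcp2l1, of which control 3 was the highest control, Esrrb was lowest in control 3, and its log2 fold change was -3.65 without that library.

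Esrrg (ENSMUSG00000026610.12, chromosome 1, 187608510 to 188214885) was at 56.5, 54.2 and 64.6 CPM in controls and at 26.4, 25.6 and 21.5 CPM in KO. Spread was small in both groups, 5.46 and 2.65 CPM (SD, n = 3 each) around means of 58.4 and 24.5 CPM. Relative to control the change was -1.25 on the log2 scale (SE 0.13, edgeR adjusted p 0.000753), and it ranged from -1.17 to -1.31 when 1 sample was left out. The long non-coding genes Gm36388, 9330162B11Rik and Gm51738 overlap it.

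Tfcp2l1 (ENSMUSG00000026380.10, chromosome 1, 118627923 to 118685168) was at 316, 221 and 417 CPM in controls and at 164, 226 and 156 CPM in KO. KO 2 lay above control 2, so the groups overlapped. The difference of -0.80 on the log2 scale (SE 0.24, edgeR adjusted p 0.0640) did not pass the test, and it was -0.56 without control 3 (adjusted p 0.0580). It was called lower by DESeq2 (-0.80, adjusted p 0.0119), by edgeR with no low-count filter (0.0186) and by edgeR without control 2 (-1.01, adjusted p 0.0208).

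**Figure D1:**
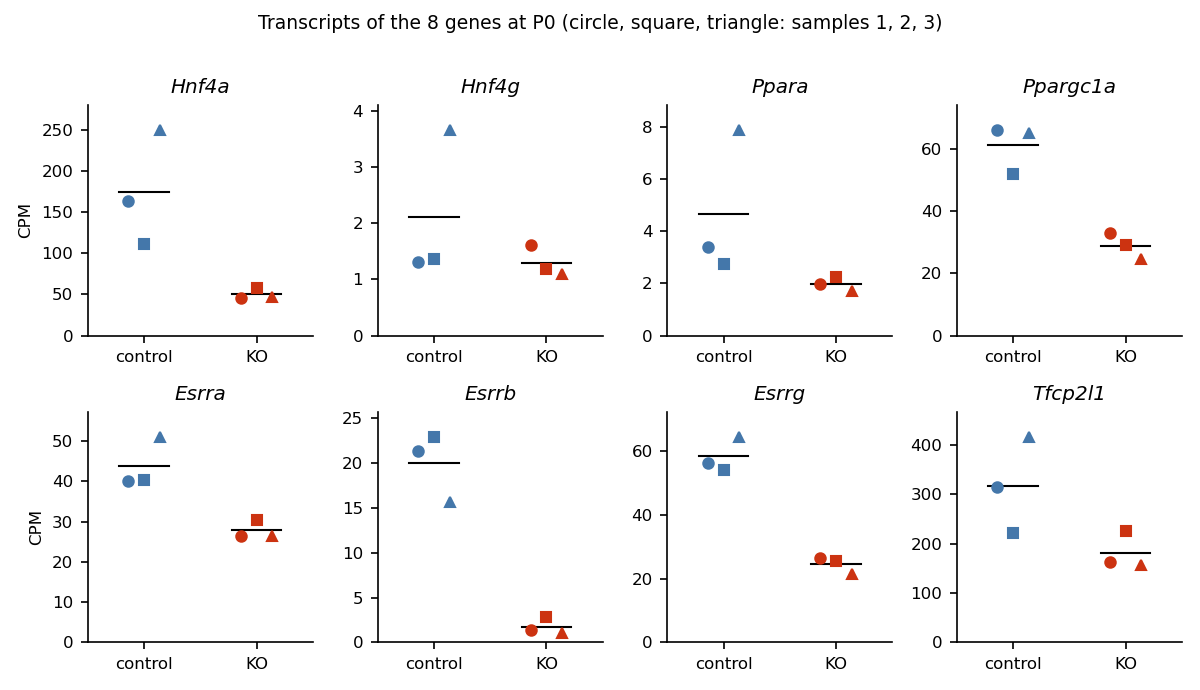
CPM of the 8 genes on linear axes from 0, in the 3 control (blue) and 3 KO (red) samples at P0; symbols stand for samples 1, 2 and 3 and the bar for the mean. Esrrb, Esrrg, Ppargc1a, Esrra, Hnf4a and Ppara have every KO sample below every control, while Hnf4g and Tfcp2l1 overlap. Ppara was not called, and the share of all tested genes without overlap was not counted.

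The genes differed in how they ran across the 6 libraries. By the root mean square (RMS) difference of log2 CPM centred on each gene, Ppargc1a and Esrrg were the most alike pair of the 8 genes, at 0.13, followed by Esrra and Tfcp2l1 at 0.22. Esrrb was the least like the others, with an RMS of 1.10 to 1.72. A larger fold change widens this measure, and that of Esrrb was the largest. The genes nearest to each by the same measure, over 6 samples and among 13018 or 13019 candidates, were Xylb, Mapt and Thnsl2 for Hnf4a (RMS 0.12 to 0.13), Abca9, Ano5 and Mertk for Hnf4g (0.11 to 0.13), and Cpt1a, Reep6 and Dqx1 for Ppara (0.11 to 0.12). Larp1b, Trp53inp2 and Pkhd1 were nearest to Ppargc1a (each 0.08), Ptgr2, Pde9a and Abca7 to Esrra (each 0.05), and Cdkl1, Pkhd1 and Slc25a13 to Esrrg (0.04 to 0.09). Prkcz, Pctp and Ppil6 were nearest to Tfcp2l1 (0.08 to 0.12). By RMS Esrrb had no close neighbour: Abca13 was at 0.27, Slc12a1, the salt transporter of the thick ascending limb, at 0.39 and Them7 at 0.41. Their Pearson correlations with Esrrb over the 6 samples were 0.98 to 0.99. Among the 8 genes, correlations of Esrrb ran from 0.37 with Hnf4g to 0.96 with Esrrg, and those of Hnf4g from 0.37 to 0.89. All 6 samples share the split into control and KO, which sets much of this likeness.

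Genes that HNF4-type regulation serves in the proximal tubule had the lowest median of the 8 pathway lists, above that of the proximal tubule markers (-3.24). Of 28 tested, 25 were lower in KO, none was higher and the median log2 fold change was -2.91. Miox, an inositol oxygenase, was at 28.9, 32.7 and 450 CPM in controls and at 3.58, 4.33 and 4.64 CPM in KO. Control 3 stood far above the other controls. The log2 fold change was -5.35 with all samples (SE 1.13, edgeR adjusted p 0.0164) and -2.88 without control 3. Slc13a3, a dicarboxylate transporter, and G6pc, the glucose-6-phosphatase of gluconeogenesis, changed by -4.91 and -4.08 (edgeR adjusted p 0.0130 and 0.0468), and by -2.93 and -1.42 without control 3. Among the smaller called changes were those of Cdhr5, a brush border cadherin (-2.11), and Apom, an apolipoprotein (-2.0). Without control 3, 25 of 29 tested were lower and the median was -2.13. With KO 1 left out 16 of 29 were lower, and with KO 2 or KO 3 left out 17 of 29.

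Fatty acid oxidation genes of the PPARA type were lower in 19 of 35 tested and higher in none, with a median of -0.94. Cyp4a10, a fatty acid hydroxylase, was at 13.6, 12.1 and 232 CPM in controls and at 3.05, 4.46 and 5.47 CPM in KO (log2 fold change -4.32, edgeR adjusted p 0.0421), and its log2 fold change without control 3 was -1.57. Vnn1, a pantetheinase, and Ehhadh, a peroxisomal beta-oxidation enzyme, were at -3.88 and -3.27, and at -2.02 and -1.15 without control 3. The smallest called changes were those of catalase (Cat, -0.68), Hadhb of the mitochondrial trifunctional protein (-0.65) and Decr1 (-0.62). Without control 3, 25 were lower and 1 was higher with a median of -0.60. With KO 1 left out 7 of 38 tested were lower, with KO 2 left out 12 of 38 and with KO 3 left out 10 of 36.

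Mitochondrial genes served by ERR receptors and PGC-1 were lower in 23 of 33 tested and higher in none, with a median of -0.68. Idh3a, a dehydrogenase subunit of the citric acid cycle, was at 126, 127 and 121 CPM in controls and at 61.1, 70.6 and 63.3 CPM in KO (log2 fold change -0.93, SE 0.10, edgeR adjusted p 0.000989). Ogdh, of another dehydrogenase of that cycle, changed by -1.01, and Idh3g, Sucla2 and citrate synthase (Cs) by -0.62, -0.54 and -0.53. The summed level of the list was 9430 to 9940 CPM in controls and 5530 to 6120 CPM in KO, so control 3 did not stand apart here, and without it 27 were lower and 1 was higher with a median of -0.68. With KO 1 left out 15 of 33 were lower. Tfam, Nrf1 and Gabpa, regulators of mitochondrial biogenesis, were not called, at 0.10, 0.23 and 0.23.

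Genes linked to TFCP2L1 in the collecting duct, most of them of intercalated cells, were lower in 13 of 19 tested and higher in none, with a median of -1.50. Without control 3, 14 were lower and 1 was higher, and without KO 1 or KO 3, 9 of 20 tested were lower. Slc26a4, the pendrin anion exchanger, was at 2.35, 3.07 and 14.3 CPM in controls and at 0.405, 0.525 and 0.722 CPM in KO (log2 fold change -3.58, edgeR adjusted p 0.0152; -2.30 without control 3). Oxgr1, a receptor for 2-oxoglutarate, was at -3.52 (-2.54 without control 3) and the ammonia channel gene Rhbg at -2.32. Carbonic anhydrase Car2 (-1.30), the proton pump subunit gene Atp6v0d2 (-1.25) and the aquaporin gene Aqp3 (-0.83) had the smallest called changes. Aqp2, the vasopressin-regulated water channel of principal cells, was at 540, 564 and 185 CPM in controls and at 257, 424 and 179 CPM in KO and was not called. The other members of the CP2 and grainyhead family gave no call in 5 tested (median 0.04), and Grhl3, with the smallest p, was at 2.44, 1.94 and 4.43 CPM against 11.1, 8.59 and 3.23 CPM (log2 fold change 1.38, edgeR adjusted p 0.0994; 1.81 and called higher without control 3, adjusted p 0.0213).

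Receptor partners and co-regulators had a median of -0.04. Of 16 tested, none was lower and 2 were higher: Rxrg, a retinoid X receptor, at 0.305, 0.680 and 0.598 CPM in controls against 2.96, 2.56 and 2.93 CPM in KO (log2 fold change 2.41, edgeR adjusted p 0.00312), and Pparg, the adipogenic PPAR, at 4.33, 4.30 and 4.29 CPM against 9.78, 8.62 and 5.70 CPM (0.90, adjusted p 0.0440). Rxra, the partner receptor of PPARA, was not called at -0.09. Among 16 other tubule transcription factors, 5 were lower and none was higher, with a median of -0.76. Among the 5 were Vdr, the vitamin D receptor (-1.94), Tfap2b (-1.76) and Nr1h4, the bile acid receptor (-1.75). Without control 3, 7 were lower with a median of -0.40, and Vdr was at -1.37. The count of 5 was 2 without KO 1 or KO 3, and 3 without KO 2 or control 1.

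Since Esrrb and Tfcp2l1 also belong to the naive pluripotency network, 18 other factors of it were counted. Of 7 tested, none was lower and 2 were higher, whereas without control 3, 2 were lower and 2 higher. The count of higher factors was 1 without control 2, KO 1 or KO 2 and 3 without KO 3. Klf5 was at 8.41, 5.92 and 5.71 CPM in controls and at 20, 21.9 and 10.3 CPM in KO (log2 fold change 1.38, edgeR adjusted p 0.0197). Dppa2 had 1, 0 and 0 counts in controls and was at 0.343, 0.426 and 0.722 CPM in KO (edgeR adjusted p 0.00458).

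**Figure D2:**
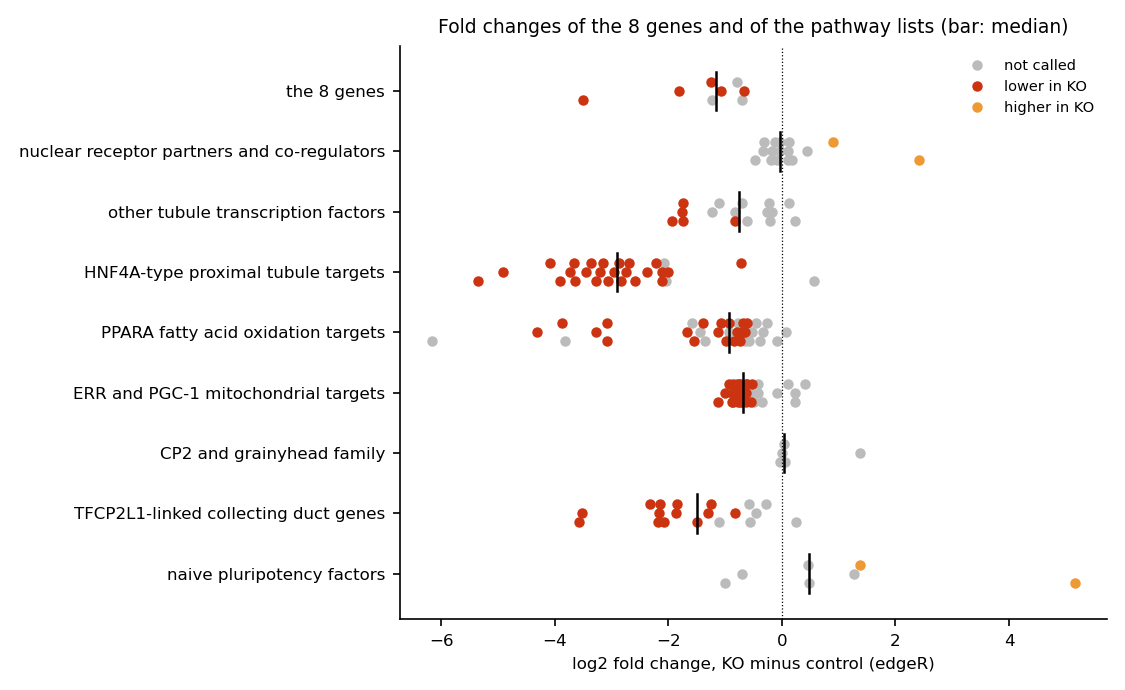
Log2 fold change, KO minus control, of the 8 genes and of every tested gene in 8 pathway lists; red points were called lower, orange points higher, grey points not called, and bars are medians. The 8 genes have a median of -1.16, between the HNF4A-type list at -2.91 and the co-regulators at -0.04.

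Summed markers of several kidney cell types were also lower in KO, while those of others overlapped between the groups. Summed proximal tubule markers ran from 2260 to 5730 CPM in controls and from 420 to 539 CPM in KO (10 of 10 lower), and thick ascending limb markers from 1090 to 1360 and from 125 to 174 CPM (8 of 8 lower). Intercalated cell markers ran from 170 to 372 and from 58.2 to 68.8 CPM (7 of 8 lower), podocyte markers from 832 to 1230 and from 312 to 401 CPM (8 of 9 lower), and endothelial markers as given above (5 of 8 lower). Principal cell markers overlapped, from 660 to 1020 and from 510 to 908 CPM (1 of 8 lower), as did distal convoluted tubule markers (327 to 565 and 329 to 358 CPM, 5 of 7 lower and 1 higher) and nephron progenitor markers (579 to 1090 and 787 to 879 CPM, 2 of 9 lower and 2 higher). Leukocyte markers ran from 96.4 to 124 and from 107 to 172 CPM (2 of 8 higher), erythroid markers from 346 to 1070 and from 525 to 757 CPM (1 of 4 tested lower), and 4 of the 9 stroma markers were higher. Without control 3, the lower calls were 8 of 8 endothelial, 3 of 4 erythroid, 4 of 9 nephron progenitor and 2 of 8 principal cell markers. With KO 1 left out they were 2 of 8 endothelial, 4 of 8 intercalated cell, 5 of 9 podocyte and 3 of 7 distal convoluted tubule markers. Several genes of the HNF4A-type and collecting duct lists are also in these marker lists, and the part of cell composition in the fold changes of the 8 genes was not tested.

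CpG methylation over all 8 genes was lower in KO, and of 3 of them also in adults. Each gene's value is the plain mean of its positions that reached 10 calls in every one of the 9 samples, tested with limma over 14898 genes. In KO, 72.2% of all genes were lower and 0.477% higher, so 8 of 8 lower and 0 higher followed the direction of most genes. In adults, where 5.72% of all genes were lower and 3.79% higher, Hnf4a, Ppara and Tfcp2l1 were lower and the other 5 were not called. The median difference of the 8 genes was -11.7 points in KO, against -10.1 over all genes, and -1.49 in adults, against -0.622. The KO and adult contrasts use the same controls.

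Hnf4a showed the largest difference in points in KO. As a share of the control mean, the KO loss ran from 22.3% in Tfcp2l1 to 32.6% in Esrra, with 29.9% in Hnf4a. Its 30 positions averaged 71.0%, 73.4% and 72.3% in controls, 52.4%, 48.4% and 51.1% in KO and 55.2%, 61.8% and 58.2% in adults. No KO or adult sample reached a control. The KO difference was -21.6 points (SE 2.08, limma adjusted p 6.79e-05) and the adult difference -13.8 points (SE 2.08, limma adjusted p 0.00339). By exact permutation of the 3 against 3 samples p was 0.1 in each case, the smallest this design allows.

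Ppara and Tfcp2l1 were lower both in KO and in adults. For Ppara the KO and adult differences were close (SE 2.02 points each), and for Tfcp2l1 the adult difference was larger (SE 2.34 points each). Ppara, over 11 positions, averaged 48.7%, 43.0% and 42.3% in controls, 33.3%, 28.6% and 30.8% in KO and 29.8%, 30.4% and 28.8% in adults, differences of -13.8 and -15.0 points (limma adjusted p 0.000327 and 0.00189). At a minimum of 5 calls, which brings in more positions, the Ppara differences were -7.49 and -8.96 points (limma adjusted p 0.0183 and 0.0474). Tfcp2l1 rested on 3 positions, at 43.2%, 47.0% and 51.2% in controls, 37.3%, 33.8% and 38.7% in KO and 25.7%, 28.2% and 23.7% in adults, differences of -10.5 and -21.3 points (limma adjusted p 0.00305 and 0.000587). The adult and KO differences were not tested against each other. At a minimum of 20 calls neither gene kept enough positions for a value.

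Methylation of Ppargc1a, Esrrg and Esrrb was lower in KO and was not called in adults. Ppargc1a, over 83 positions, fell from 53.7%, 54.4% and 53.8% in controls to 40.5%, 34.7% and 42.2% in KO (-14.8 points, limma adjusted p 0.000205), with 52.3%, 53.7% and 53.4% in adults. Its RefSeq interval spans 661605 bases, and 77 of the 83 positions lie more than 2 kb before the start in the promoter table. The other 6 positions averaged 82.5% in controls, 71.5% in KO and 72.5% in adults, differences of -10.9 and -9.94 points with no test, and the adult samples overlapped the controls. Esrrg, over 131 positions, went from 51.2%, 53.6% and 53.3% to 40.5%, 37.8% and 43.7% in KO (-12 points, limma adjusted p 0.000403), with 51.7% to 54.6% in adults. Esrrb, over 88 positions, was at 48.1%, 45.4% and 44.1% in controls and 34.2%, 30.8% and 38.5% in KO (-11.4 points, limma adjusted p 0.00109), with 46.5% to 48.4% in adults.

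Esrra had the lowest methylation of the 8 and the smallest KO difference in points. Of its positions, 12 were under 20% in controls, with a mean of 1.14%, and differed by 0.323 points in KO. The 3 positions at 20% to 80% in controls differed by -24.8 points in KO. Neither set was fitted with limma. As a share of the control mean, the KO loss of Esrra, 32.6%, was the largest of the 8. Its 15 positions averaged 15.6%, 14.6% and 13.0% in controls, 12.2%, 8.59% and 8.33% in KO (-4.70 points, limma adjusted p 0.00502) and 11.6% to 12.8% in adults. Every adult sample lay below every control, and the adult difference of -2.16 points was not called (limma adjusted p 0.327). It was called at a minimum of 5 calls (-4.71 points, limma adjusted p 0.0460) and in a fit of only the 6 samples compared (-1.58 points, limma adjusted p 0.0142). At a minimum of 20 calls the KO difference was -0.546 points and not called (limma adjusted p 0.471). Weighting positions by coverage gave -2.19 points in KO, which did not pass the test (limma adjusted p 0.109). Hnf4g, over 8 positions, was at 39.7%, 33.9% and 37.8% in controls and 26.0%, 34.5% and 25.1% in KO. KO 2 lay above control 2, so the groups overlapped (-8.61 points, limma adjusted p 0.0162, exact permutation p 0.2). At a minimum of 20 calls the Hnf4g difference turned to 5.08 points, and weighting by coverage (limma adjusted p 0.0969) also ended the call. It was lost too with KO 1, KO 3 or control 1 left out (limma adjusted p 0.0569, 0.0524 and 0.0603).

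**Figure D3:**
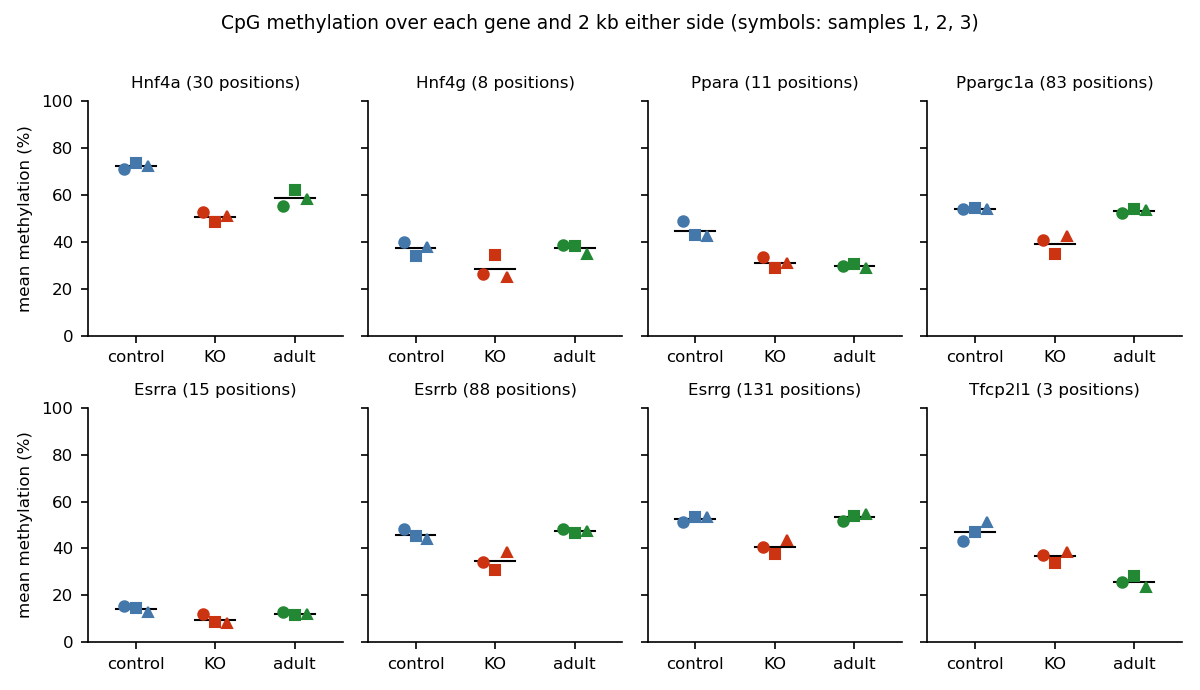
Mean CpG methylation of each gene with 2 kb flanks in percent, for 3 control (blue), 3 KO (red) and 3 adult (green) samples, with bars for means; the number of positions stands beside each name. KO samples lie below controls in every panel except Hnf4g, where 1 overlaps, and adults lie below controls for Hnf4a, Ppara, Tfcp2l1 and Esrra, of which Esrra was not called.

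Windows of 1 kb either side of the annotated starts were read for 9 starts of 5 genes with at least 3 positions each. Controls averaged under 10% in 7 of the 9: the starts of Ppara, Esrra, Esrrg and the downstream start of Esrrb. The windows of the Esrrg starts at 187651758 and 187652241 held the same 15 positions, so they are 1 set of data counted under both starts. None of the 9 was called in KO, where 5.43% of all windows were lower and 0.131% higher. In adults 1 was lower, against 4.36% of all windows lower and 2.14% higher. That window was the downstream start of Hnf4a, position 163547155 on chromosome 2, where 3 positions averaged 71.3% ± 8.18 in controls, 56.8% ± 10.7 in KO and 36.4% ± 1.56 in adults (SD, n = 3 each). The adult difference was -34.9 points (SE 6.42, limma adjusted p 0.00917), and the KO difference of -14.5 points did not pass the test (limma adjusted p 0.268). With a minimum of 5 calls the window held 6 positions, and both contrasts were called, at -38.0 points in adults and -29.8 points in KO (limma adjusted p 0.00542 and 0.0251). The upstream start of Esrrb, the other methylated start, was at 32.8% ± 4.23 in controls, 22.4% ± 4.62 in KO and 31.3% ± 2.16 in adults (KO difference -10.3 points, limma adjusted p 0.169).

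As background, the downstream Hnf4a start corresponds to the P1 promoter, which is used in adult liver and kidney, and the upstream start to P2. Single positions were tested with a quasi-binomial model over calls, with 10 calls or more in each of the 6 samples compared, and called at an adjusted p below 0.05 with a difference of at least 10 points. In adults 8 Hnf4a positions lay 135 to 561 bases after the downstream start, where controls averaged 81.6%, 83.6% and 87.6% and adults 31.4%, 44.0% and 44.0%. Of these 8, 5 were called lower in adults. Further into the gene, 4 positions from 163551627 to 163551658 averaged 87.2%, 85.9% and 72.0% in controls, 53.8%, 44.2% and 47.7% in KO and 10.3%, 53.8% and 39.1% in adults, with 3 called lower in KO and 4 in adults. Adult 1 was well below the other adults there. A pair at 163559448 and 163559595 averaged 74.1% in controls and 43.3% in both KO and adults. Groups of positions no more than 1 kb apart were formed and chosen after their values were seen.

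The largest Hnf4a decrease in both contrasts was at 163551658. It stood at 100%, 81.0% and 81.0% in controls on 34, 63 and 21 calls, at 66.7%, 30% and 27.3% in KO on 15, 30 and 11 calls, and at 10.3%, 40% and 33.3% in adults on 29, 20 and 30 calls. The differences were -46.0 points in KO (adjusted p 0.00347, quasi-binomial model) and -59.4 points in adults (adjusted p 0.000399, the same model). A single Hnf4a position, 163514030, was higher in adults, at 97.3%, 91.4% and 94.4% against 69.0%, 65.5% and 78.6% in controls.

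**Figure D4:**
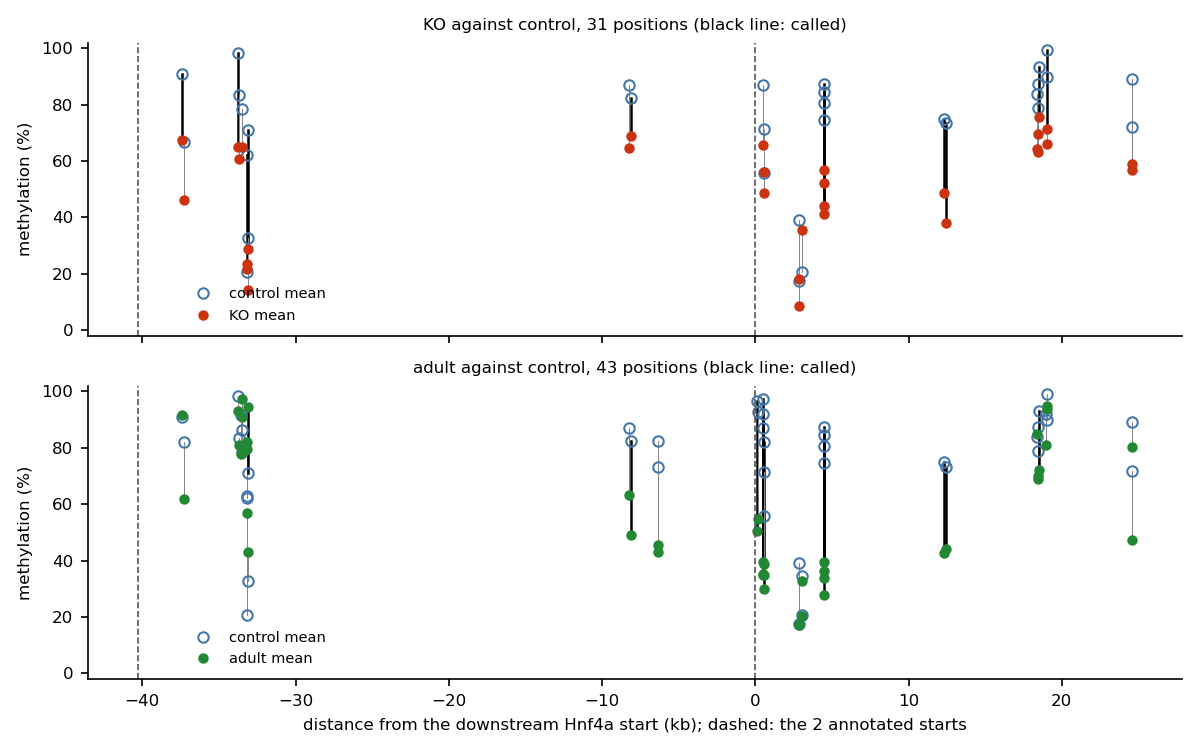
Methylation in percent of single Hnf4a positions against distance in kb from the downstream start (dashed line at 0, upstream start dashed at left), as control means (open blue) joined to KO means (red, upper) or adult means (green, lower); black joins were called. At the 8 positions just after the downstream start the adult mean is 39.8% against 84.3% in controls, and at the 10 positions from 163513419 to 163514053 it is 79.6% against 68.8%.

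Over all 8 genes, 115 of 383 tested positions (30%) were lower in KO and 1 was higher, where 35.2% of all positions were lower and 0.127% higher. In adults 33 of 730 (4.52%) were lower and 15 (2.05%) higher, against 1.98% lower and 1.90% higher over all positions. The KO count of 115 became 69 without KO 2. Without control 2, the deepest control, the adult counts became 15 lower and 9 higher, and the 15 higher became 8 without control 3, adult 2 or adult 3. Adult decreases were at 13 of 43 positions in Hnf4a (30.2%), 6 of 23 in Tfcp2l1 (26.1%), 6 of 46 in Ppara (13.0%), 7 of 238 in Esrrg, 1 of 131 in Esrrb and none in Ppargc1a, Esrra and Hnf4g, which had 174, 60 and 15 positions tested. The KO share was highest in Ppargc1a, at 39.8% of 83 positions, and Hnf4a, at 38.7% of 31, and none of the 15 Esrra positions was called. Positions within a gene share reads and samples and are not independent.

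In Tfcp2l1 the 6 positions lowered in adults formed 2 groups of 3 inside the gene. From 118652201 to 118652319, 24256 bases after the start, controls averaged 84.8%, 90.6% and 86.4% and adults 42.0%, 45.9% and 48.2%. From 118658924 to 118659042, controls averaged 86.7%, 83.4% and 84.5% and adults 28.3%, 33.3% and 38.7%. The largest called decrease was at 118659042, from 100% in each control to 34.5%, 38.6% and 53.2% in adults (-57.9 points, adjusted p 1.42e-05, quasi-binomial model). Only 3 Tfcp2l1 positions were tested in KO. The 1 called lower was 118652201, at -16.0 points, and another was at -17.0 points without a call.

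In Ppara the largest called adult decrease was at 85772251, from 100%, 59.0% and 79.3% in controls to 15.6%, 14.7% and 36.1% in adults (-57.3 points, adjusted p 0.00329, quasi-binomial model). The 4 positions from 85772251 to 85772359, of which 2 were called, averaged 67.0%, 48.0% and 53.0% in controls and 20.8%, 15.2% and 24.7% in adults. One called position, 85808481, lies in the 2 kb flank and inside the neighbouring gene Cdpf1. The largest called KO decrease in Ppara was -37.3 points at 85749195.

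Esrrg had changes in adults in both directions, with 7 lower and 11 higher of 238 positions. The largest called increase of any member position was at 187630622, from 0%, 28.9% and 29.0% in controls to 100%, 85.3% and 90.9% in adults on 19 to 45 calls (72.8 points, adjusted p 3.87e-05, quasi-binomial model). A pair of Esrrg positions at 187606708 and 187606719, in the flank before the first start, averaged 3.85%, 2.17% and 5.75% in controls and 52.1%, 52.0% and 49.1% in adults. The largest called adult decrease was -41.4 points at 187645322 and the largest called KO decrease -48.9 points at 188114484, where KO samples ran from 11.1% to 69.7% on 10 to 33 calls. In Esrrb the largest called KO decrease was -37.4 points at 86508372, and the largest called adult changes were -25.0 points at 86395709 and 17.7 points at 86423740. Ppargc1a had its largest called KO decrease at 51646319 (-47.2 points). Hnf4g had a called KO decrease of -42.6 points at 3528016 and the only called KO increase, 12.5 points at 3508088, where controls were at 9.09%, 2.27% and 2.27% and KO samples at 10.1%, 20.3% and 20.7%.

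**Figure D5:**
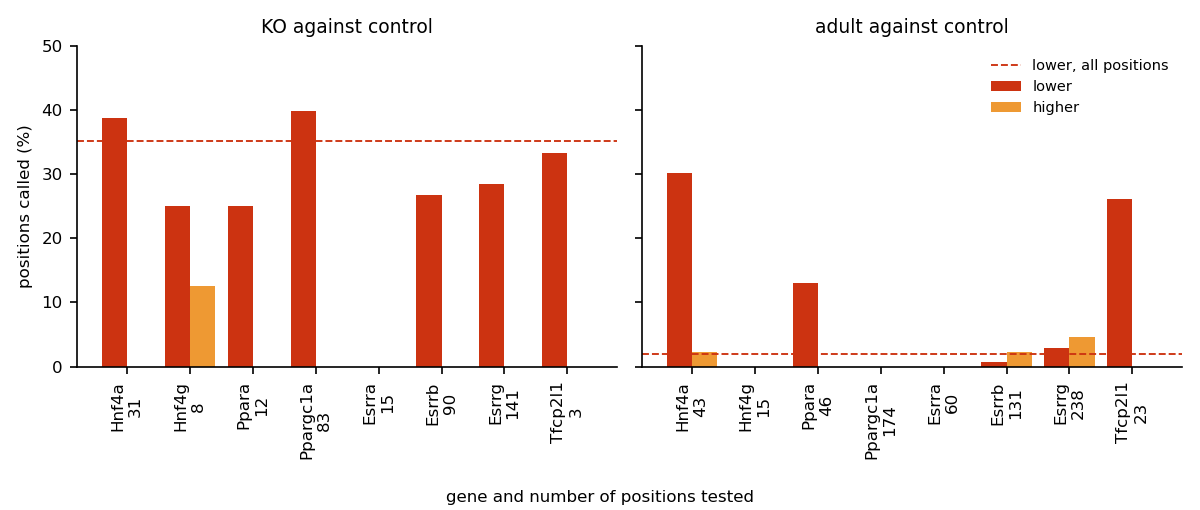
Percent of tested positions called lower (red) and higher (orange) in each gene, in KO (left) and adults (right), with the number of positions under each name; the dashed line is the share of all positions called lower. In KO, Hnf4a (38.7%) and Ppargc1a (39.8%) lie a little above the line of 35.2%. In adults Hnf4a, Tfcp2l1 and Ppara lie well above the line of 1.98%. Esrrg is close to it at 2.94% lower, with 4.62% higher.

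Transcript and methylation values can be set side by side for the 8 genes. Esrrb had the lowest RNA in KO relative to control (8.73%) and a methylation difference of -11.4 points, whereas Hnf4a, at 28.6%, had the largest methylation difference, -21.6 points. These gene means mix positions of unlike control level, with 30 of 88 under 20% in Esrrb and 1 of 30 in Hnf4a. At positions of at least 80% in controls the differences were -28.9 points in Esrrb and -25.1 points in Hnf4a. Ppara, Tfcp2l1 and Hnf4g, the 3 genes whose RNA was not called, had methylation differences of -13.8, -10.5 and -8.61 points. Because 72.2% of all genes were lower in methylation in KO, a lower level at these genes does not set them apart. No RNA sample of the adult stage is among the samples used here, so the adult methylation values have no transcript values to stand beside.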

How the data were processed

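RNA files hold deposited raw read counts per gene. Per the submitters' processing notes, tools named are Trim Galore, Bismark, STAR 2.4.1d and HTSeq 0.6.1, and the build is GRCm38. Rows naming no gene (22.9% to 35.8% of reads) were left out. Deposited RRBS files give, per position, a methylation percent and counts of methylated and unmethylated calls. Counts were tested with edgeR 4.0.16 (quasi-likelihood, TMM, filterByExpr, Benjamini-Hochberg) in R 4.3.3. Standard errors came from the F statistic. Mean percent methylation per gene, with at least 3 positions, was fitted with limma 3.58.1 over 9 samples. Single positions were tested with a quasi-binomial model with a dispersion shrunk across positions and held at 1 or above, in Python 3.11.15. At simulated effects, edgeR recovered 99% of 100 genes at log2 fold changes of -2 or 2 and 52% of 100 at -1 or 1, the gene methylation fit 76% of 200 genes lowered by 15 points, and the position model 48.3% of 3000 positions lowered by 25 points. False calls made up 6.46% of the simulated position calls, and 7 unchanged genes were called in each gene simulation. In the methylation simulations the spread was a set value, not one fitted to these data. Intervals and errors do not cover duplicate reads.

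The 8 genes and all lists were chosen with earlier results of these data known. Named genes were the 8, Dnmt1, the 3 largest and 3 smallest log2 fold changes among called genes of each pathway list (the smallest p where fewer than 2 were called), the 3 genes nearest to each of the 8 whose log2 CPM averaged 1 or more, and the called position with the largest decrease and increase per gene. Other genes named in the text were chosen after their values were seen. Of positions listed inside the promoter windows, 99.6% lay on a CpG. Sequences are from RefSeq, GRCm38.p6. Exon structure was not used here. Alternatives were DESeq2 1.42.0, voom (limma) using sample quality weights, other scalings, filters, coverage minimums, windows, weights, a replicate block and each sample left out. Some genes that the naming rule selects are not reported here.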

Additional observations from a re-analysis of the deposited data

How the results depend on the processing

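The count of 5 genes with lower transcripts stayed between 4 and 7, and none of the 8 was called higher under any alternative. Of 96 alternative fold changes of the 8 genes, none changed sign, 4 lost a call (all Esrra) and 6 gained one (Ppara and Tfcp2l1). At an adjusted p below 0.01 the count was 4. The total of 85 lower calls over the pathway lists ran from 49 to 100 with 1 sample left out, the lowest without KO 1 and 56 without KO 3. Gene methylation in KO was lower for 4 genes at a minimum of 20 calls, where Hnf4g turned to 5.08 points, Esrra was at -0.546 and Ppara and Tfcp2l1 had no value, for 6 weighted by coverage (Esrra and Hnf4g lost) and for 7 to 8 with 1 sample left out. In adults it was lower for 1 gene at 20 calls, for 4 at 5 calls or with only the 6 samples compared (Esrra gained), and for 3 with any 1 sample left out.

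Counts of single positions depended most on the settings. The 115 positions lower in KO became 62 at 20 calls, 189 with no overdispersion and 69 to 130 with 1 sample left out, the lowest without KO 2. The 1 higher position became 0 at 25 points, 6 with no overdispersion and 0 to 1 with 1 sample left out (0 without control 2 or KO 2). The 33 lower in adults became 20 at 20 calls, 90 with no overdispersion and 15 to 30 with 1 sample left out, the lowest without control 2. The 15 higher became 8 at 20 calls, 9 at 25 points, 58 with no overdispersion and 8 to 12 with 1 sample left out. Of the start windows, 0 were called within 500 bases, where the Hnf4a window had too few positions, and at 5 calls there were 2 calls, KO and adult, both in the Hnf4a downstream window.

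The replicate numbers shared by the groups did not pair the samples. Same-numbered RNA samples had correlations of deviations from -0.236 to -0.0653, and 0 of 6 samples correlated best with their own number. For RRBS this was 2 of 6 with KO and 4 of 6 with adults. With a replicate block 4 of the 8 genes were lower in transcripts (Esrra at an edgeR adjusted p of 0.0531), 8 in KO gene methylation and 3 in adults, while positions fell to 55 lower and 0 higher in KO and to 0 lower and 0 higher in adults. Uncalled adult differences of gene methylation near 0 changed sign: Hnf4g to 0.517 at 5 calls, 0.880 with only the 6 samples compared and -1.66 to 1.27 with 1 sample left out (-0.0261 with all samples), Ppargc1a to 0.524 and 0.0597 under the first 2 of these, and Esrrg to -3.92 weighted by coverage and -0.0430 to 1.53 with 1 sample left out, the lowest without control 1. An alternative added after seeing the data, Ppargc1a without its far upstream span, gave -10.9 points in KO and -9.94 in adults. Depth limits the methylation values, and KO 3 was the shallowest RRBS sample, with a median of 4 calls.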
